A study of Mus musculus with 11 samples.

Results

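Whole-tissue gene expression was compared between lymph node (LN) and spleen in mice without a BCL2 knock-in. The comparison held 7 of the series' 11 libraries: 4 of LN (wild-type mice 1 and 2, transgenic mice 3 and 4) and 3 of spleen (mice 1, 2 and 4), so that 3 mice gave both tissues. They were chosen by tissue and genotype label alone, and all 10885 genes of the deposited table were tested. Wild-type mice (Wt) carried no inserted BCL2, and transgenic mice (Tg) carried a transgene named 3'RR-BCL2, after the 3' enhancer group of the heavy chain antibody locus, which is active in the B lineage. All 7 libraries came from mice given sheep red blood cells into the peritoneum over 3 months, with tissue taken 1 month after the third injection. The sources used here do not give the age, the strain, the number of founders of the transgenic line or the site of the LN. RNA came from dissociated cells labelled as whole tissue, so that each library is a mixture. Values are normalised signals, that is, gene reads divided by 1 size factor per library. Listed values follow the order mice 1, 2, 3 and 4 for LN and mice 1, 2 and 4 for spleen. Differences are LN minus spleen on the scale log2(signal + 1) ± SE, fitted with limma over the 7 libraries with tissue and genotype as terms, and folds are powers of 2 of them, which understates the change of low genes. A gene was called at a Benjamini-Hochberg adjusted p under 0.05.

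Both organs filter a body fluid and bring antigen to naive lymphocytes, but they filter different ones. LN receive lymph and are entered by dendritic cells that migrate from tissues, with lymphocytes coming from blood through high endothelial venules. The spleen filters blood: macrophages of its red pulp break down aged red cells and recycle their iron, B cells of its marginal zone face the bloodstream, and in mice it also holds blood-forming cells, platelets and reserves of monocytes and neutrophils.

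Depth, as reads recovered from the steps of the values, was between 11128568 and 21067988 in LN and between 18994455 and 22471896 in spleen. Replicates differed on the log2 scale with an SD over genes of 0.493 for LN Wt, 0.449 for LN Tg and 0.451 for spleen Wt. Of the markers taken to check the labels, Spic, Vcam1 and Slc40a1 (red pulp macrophages) and Cr2 and Cd1d1 (marginal zone B cells) were higher in every spleen library, and Cd3e and Lef1 (T cells) in every LN library, while Ccr7 overlapped. Haemoglobin genes took at most 0.00909% of the signal in any library, and Hbb-bs and Alas2, taken as erythroid markers of spleen, overlapped between the tissues. Of 22 genes of lymphoid stroma and endothelium 4 were measured, all with overlap between the tissues and adjusted p of 0.223 or more, and Ccl21a, Cxcl13 and Madcam1, which would mark LN stroma, were not among the genes analysed. No exocrine pancreas gene was measured. The table lists genes that reached at least 109.3 in some library of the series, so weakly expressed genes were not examined. A gene near 0 in the 4 LN libraries was therefore listed only through a spleen or knock-in library. For such genes a direction lower in LN was partly set by this filter. A bulk library cannot tell fewer cells of a type from less RNA per cell, which holds for every result below.

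Between LN and spleen 1717 of 10885 genes were called (15.8%), with 616 higher in LN (5.66%) and 1101 lower (10.1%). Among genes differing over 2-fold the balance leaned further to spleen, with 110 higher and 566 lower in LN (247 and 444 after quantile normalisation). Each of the 1717 differed in the same direction in all 3 mice with both tissues, and for 1655 of them no LN library overlapped a spleen library. The calls were made on these same libraries, so neither count is separate support for them. Over all genes, 3021 did not overlap (27.8%), with LN above in 1341 (12.3%) and below in 1680 (15.4%). The median difference of all genes was 0.0082. Quantile normalisation gave 934 higher and 941 lower, so the split between the directions depended on the scaling. Without the spleen of Tg mouse 4 the count was 890 (259 higher, 631 lower) and without the spleen of Wt mouse 2 it was 1110 (355 higher, 755 lower). The number higher was 397 without the LN of Wt mouse 2 and 371 without the spleen of Wt mouse 1.

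**Figure D1:**
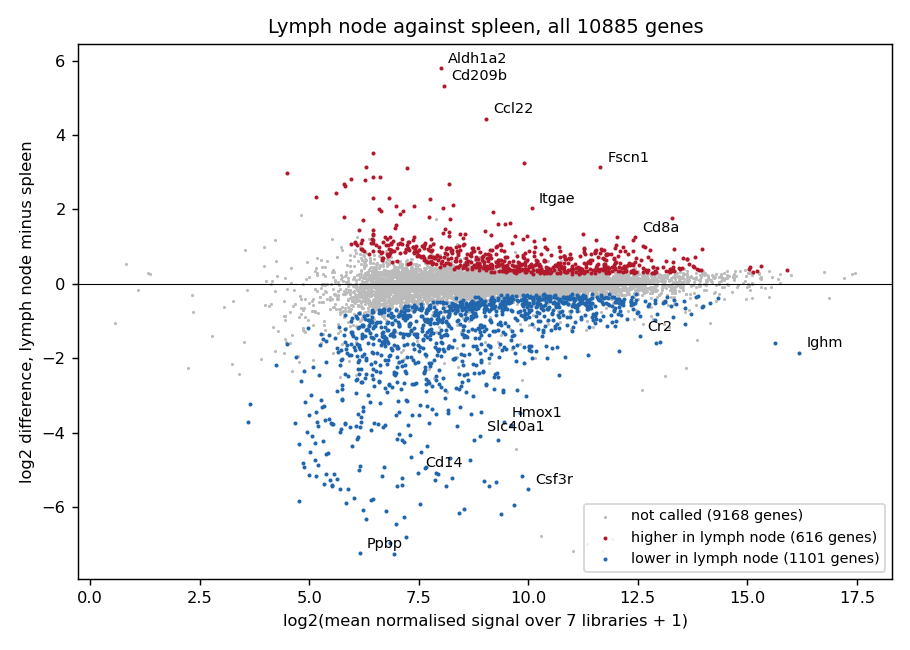
Each point is 1 of 10885 genes, with the log2 of its mean normalised signal over the 7 libraries on the x axis and its log2 difference, LN minus spleen, on the y axis. The 616 genes higher in LN (red) mostly lie within a few log2 units of 0, while the 1101 lower genes (blue) reach below -7, where Ppbp lies.

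T cell genes were higher in LN nearly throughout. Of 27 measured pan T cell genes 25 were called higher and none lower, at a median difference of 0.88, as were 21 of 24 T cell receptor segments (median 0.89). Cd8a, the alpha chain of the CD8 co-receptor of cytotoxic T cells, read 7742, 7414, 6574 and 7428 in LN and 2969, 3559.9 and 2843 in spleen. The highest spleen library lay well below the lowest LN library, and the difference was 1.25 ± 0.09, or 2.38-fold (adjusted p = 6.21e-05). Cd4, the co-receptor of helper T cells, read 5858, 4806, 3981 and 4206 in LN and 2846, 3001 and 3013 in spleen, a smaller gap that again left the tissues apart (0.69 ± 0.11, adjusted p = 0.00309). Cd3e, a signalling chain of the T cell receptor complex, was 3103 ± 492 (SD, n = 4) in LN and 1614 ± 109 (SD, n = 3) in spleen, 1.97-fold higher in LN (adjusted p = 0.00023). Lef1 and Tcf7, transcription factors of naive and memory T cells, were higher by 1.18 ± 0.11 (adjusted p = 0.000153) and 0.93 ± 0.09 (adjusted p = 0.000156). Lat, the adaptor that couples the receptor to downstream signalling, was higher by 1.02 ± 0.09 (adjusted p = 0.000151). Summed over the list, the T cell signal lay between 132707 and 158958 in the LN libraries and between 75609 and 82526 in the spleen libraries.

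Receptors that guide lymphocytes into and within tissue were called in both directions. Of 20 homing and positioning receptors 4 were called higher in LN and 5 lower, at a median of -0.04. Ccr7, the receptor for the chemokines of the T zone, read 7761, 16618, 15138 and 14466 in LN and 12538, 8658 and 8548 in spleen. The ranges overlapped, with LN of Wt mouse 1 the lowest of the 7 libraries, and Ccr7 was not called (0.39 ± 0.30, adjusted p = 0.48). The higher members were Ccr9, Itgb7, Selplg, the adhesion glycoprotein PSGL-1 (0.44 ± 0.12, adjusted p = 0.0404), and S1pr4, a sphingosine-1-phosphate receptor (0.38 ± 0.10, adjusted p = 0.0338). Ccr9, the receptor for the chemokine of the small intestine, read 1099.8, 1014, 955 and 869 in LN and 408, 287 and 303 in spleen, 3.05-fold higher (adjusted p = 8.45e-05). Itgb7, the beta chain of the integrins that bind mucosal vessels and epithelium, read 15069.5, 15461, 12822 and 16218 in LN and 9027, 9571 and 9365 in spleen (0.68 ± 0.10, adjusted p = 0.00211). Itgae, which was counted with the regulatory T cell genes, encodes the alpha chain that pairs with Itgb7 in the CD103 integrin of epithelial T cells, regulatory T cells and some dendritic cells and read 1467, 1352, 1463 and 2134 in LN and 403, 311 and 418 in spleen (4.07-fold, adjusted p = 5.47e-05). Ccr9, Itgb7 and Itgae separated the tissues without overlap. Lower in LN were S1pr5, used by natural killer cells and patrolling monocytes to leave tissue, at -3.76 ± 0.52 (adjusted p = 0.00137), Ccr2, the receptor of inflammatory monocytes, at -1.43 ± 0.14 (adjusted p = 0.000224), and Itgb1, an integrin beta chain, at -0.94 ± 0.10 (adjusted p = 0.000297). The Selplg call was lost without any 1 library other than the LN of Tg mouse 3 (adjusted p between 0.0623 and 0.133), and that of S1pr4 without any 1 of 5 libraries (adjusted p between 0.066 and 0.131). The count of 4 higher became 2 without the LN of Wt mouse 2, the spleen of Wt mouse 1 or the spleen of Tg mouse 4.

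Regulatory T cell genes gave a mixed picture, with 6 of 15 called higher and 1 lower (median 0.44). Foxp3, their defining transcription factor, read 327, 624, 577 and 755 in LN and 361, 424 and 402 in spleen; LN of Wt mouse 1 lay below all 3 spleens and the gene was not called (adjusted p = 0.314). Ikzf2, another of their transcription factors, was lower in every LN library than in every spleen library without being called (-0.52 ± 0.21, adjusted p = 0.148). Il2ra, the high-affinity interleukin-2 receptor chain, was called higher (0.91 ± 0.19, adjusted p = 0.0118), and lost the call without the spleen of Tg mouse 4 (0.60, adjusted p = 0.131). Without that library 1 of the list's genes was called higher, and without the LN of Wt mouse 1 there were 10 (median 0.69).

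Genes of mature, migrating dendritic cells had the highest median of the lists. Of 12 measured, 6 were called higher and 2 lower, at 1.09. Leaving out any 1 library other than the LN of Tg mouse 3 left 1 of them lower. Fscn1, the actin-bundling protein that dendritic cells switch on as they mature, read 4335, 3228, 8404 and 4836 in LN and 563, 497 and 530.3 in spleen. The LN values ranged widely, yet the lowest was several times the highest spleen value (8.73-fold, adjusted p = 0.000423). Ccl22, a chemokine by which mature dendritic cells attract T cells, read 819, 547, 1074 and 1103 in LN and 56.6, 29.1 and 31.1 in spleen (4.44 ± 0.31, adjusted p = 8.69e-05). Cacnb3, a calcium channel subunit of the same maturation programme, was 3.79-fold higher (adjusted p = 0.000189). Aldh1a2, the enzyme that makes retinoic acid from retinal and is expressed by dendritic cells and stroma of gut-draining LN, was among the genes with the largest increases. It read 224, 364, 637 and 551 in LN and 8.36, 5.51 and 4.79 in spleen, with the spleens near the bottom of the scale (5.79 ± 0.35, adjusted p = 3.59e-05). Also among the 15 largest increases were 3 apolipoprotein L genes, Apol7c (9.56-fold, adjusted p = 1.04e-05), Apol9b (8.81-fold, adjusted p = 0.000232) and Apol10b (7.29-fold, adjusted p = 0.000422), and Gbp2b, an interferon-induced GTPase (11.4-fold, adjusted p = 0.000202). Lyz1, Dscaml1, Arpin and Fndc5 were higher by between 2.68 and 2.88. Zmynd15 and Emp2, also among the 15, lost their calls without the spleen of Tg mouse 4 (adjusted p = 0.0736 and 0.091).

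Genes of conventional dendritic cells were lower in LN or not called. Of 9 measured, 4 were called lower in LN and none higher (median -0.60). Itgax, the integrin chain CD11c of dendritic cells and some macrophages, read 409.6, 524, 369 and 493 in LN and 1202, 1241 and 1743 in spleen (-1.65 ± 0.17, adjusted p = 0.00025). Sirpa, the inhibitory receptor of type 2 conventional dendritic cells, monocytes and macrophages, read 399.9, 351, 386 and 448 in LN and 1573, 1754 and 1767 in spleen (4.35-fold lower in LN, adjusted p = 1.04e-05). Both genes are also expressed by the red pulp macrophages and monocytes described below, whose genes were lower in LN; their part in these values was not tested. Clec9a, a receptor of type 1 conventional dendritic cells (0.27 ± 0.26, adjusted p = 0.55), and Flt3, the cytokine receptor of their lineage (-0.02 ± 0.16, adjusted p = 0.942), overlapped between the tissues and were not called. Plasmacytoid dendritic cell genes split, with 2 of 11 higher and 4 lower, and their marker Siglech overlapped (0.11 ± 0.40, adjusted p = 0.894).

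**Figure D2:**
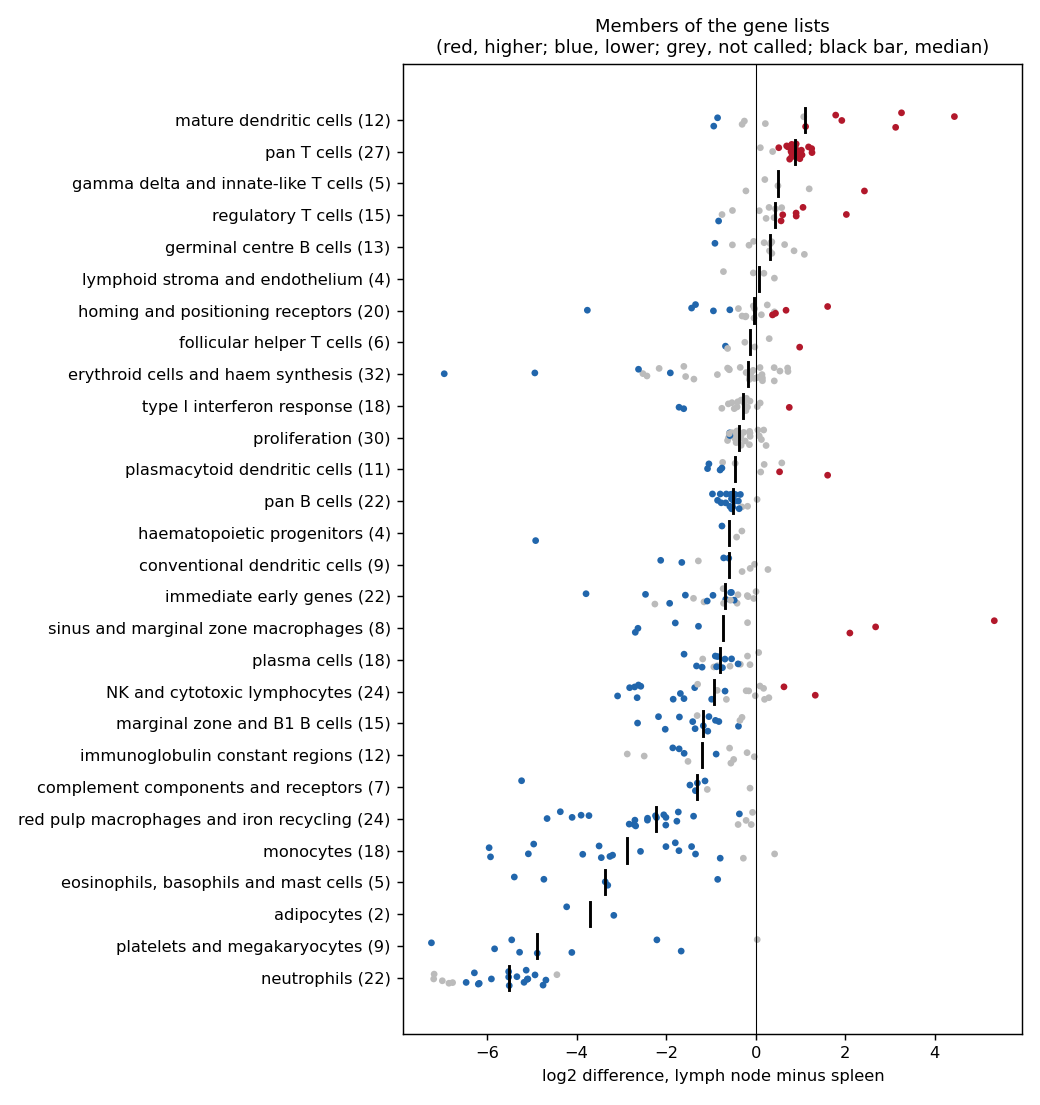
Each point is a measured member of a gene list, with its log2 difference, LN minus spleen, on the x axis and the list (number measured) on the y axis. Red points were called higher, blue points lower and grey points were not called. Pan T cell genes lie in a narrow band right of 0, while neutrophil, platelet and monocyte genes reach far to the left.

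Macrophage receptors split by gene. Cd209b, the lectin SIGN-R1 of sinus and marginal zone macrophages, read 531, 193, 718 and 409 in LN and 13, 7.87 and 7.19 in spleen (5.33 ± 0.44, adjusted p = 0.000153). Marco, a scavenger receptor of the same macrophages, read 458, 281, 514 and 555 in LN and 92.8, 77.9 and 43.1 in spleen (6.40-fold, adjusted p = 0.00112). In spleen these are textbook markers of the marginal zone, and here both were higher in every LN library than in every spleen library. Siglec1, the sialic acid receptor of subcapsular sinus and metallophilic macrophages, read 235, 131, 260.4 and 362 in LN and 65, 76.3 and 30.3 in spleen (2.10 ± 0.43, adjusted p = 0.015). Its call was lost without the LN of Wt mouse 1 (2.09, adjusted p = 0.051) and with mouse as a block (2.05, adjusted p = 0.0752). Of the 8 sinus and marginal zone macrophage genes, 3 were called higher and 4 lower. Those lower included Mrc1, the mannose receptor, at -2.69 ± 0.29 (adjusted p = 0.0003) and Cd68, a lysosomal protein of macrophages in general, at -1.28 ± 0.13 (adjusted p = 0.000245).

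Red pulp macrophage and iron-recycling genes were lower in LN. Of 24 measured, 20 were called lower and none higher, with a median of -2.23, and LN lay below spleen without overlap in 20. Hmox1, the haem oxygenase that frees iron from haem, read 116, 81, 150.0 and 106 in LN and 1633, 1579 and 1212 in spleen, 13.2-fold lower in LN (adjusted p = 3.2e-05). Slc40a1, ferroportin, the exporter that returns iron to plasma, read 51.6, 40.5, 72.2 and 81.9 in LN and 1085, 1263 and 752 in spleen (-4.10 ± 0.27, adjusted p = 5.4e-05). No LN library came near a spleen library for either gene. Spic, the transcription factor on which red pulp macrophages depend, was 55.1 ± 16.4 (SD, n = 4) in LN and 250.1 ± 32.8 (SD, n = 3) in spleen (-2.21 ± 0.27, adjusted p = 0.000634). Vcam1, an adhesion molecule of these macrophages and of stroma, was 6.58-fold lower (adjusted p = 0.000103), and Itgad, their integrin CD11d, 20.6-fold lower (adjusted p = 2.5e-05). Slc11a1, a metal transporter of the phagosome (-2.82 ± 0.19, adjusted p = 4.45e-05), and Csf1r, the growth factor receptor of macrophages (4.01-fold lower, adjusted p = 0.000127), were lower as well. Summed over the list the signal lay between 23172 and 28045 in the LN libraries and between 37808 and 41242 in the spleen libraries.

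Promoter windows of 4 of these genes are shown because their values moved together and each holds the word GAGGAAG, on either strand, which is the core that macrophage factor PU.1 and its relative Spi-C recognise. The sequences are from RefSeq's promoters of build GRCm38.p6, in which 10.6% of 32851 promoters hold that word within the 250 bases before the start site. Of the list's 24 genes 18 matched an entry, with 22 promoters, and 4 of these promoters hold the word, those of the genes shown. With so many genes of the list unmatched, a comparison of its share with that background is void. Capitals mark each match in a window, written as it reads 5′ to 3′ on the gene's strand (CTTCCTC is the reverse complement). A match is a description of these letters and not evidence of binding. Cd5l, a scavenger receptor family protein secreted by macrophages (-2.24 ± 0.24, adjusted p = 0.00033), has its window at chr3:87357777-87357857 (plus strand), the match starting 67 bases before the start site. Fcna, a lectin that starts complement (-2.70 ± 0.45, adjusted p = 0.0055), has its window at chr2:25628113-25628193 (minus strand), the first of 3 matches starting 182 bases before the start site. Siglece, an inhibitory sialic acid receptor (-4.66 ± 0.44, adjusted p = 0.000196), has its window at chr7:43660206-43660286 (minus strand), the match starting 88 bases before the start site. Axl, a receptor for dying cells (-1.39 ± 0.24, adjusted p = 0.00659; -1.36 and 0.0553 with mouse as a block), has its window at chr7:25788821-25788901 (minus strand), the match starting 131 bases before the start site.
Cd5l: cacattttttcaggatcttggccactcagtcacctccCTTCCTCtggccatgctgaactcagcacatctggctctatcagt
Fcna: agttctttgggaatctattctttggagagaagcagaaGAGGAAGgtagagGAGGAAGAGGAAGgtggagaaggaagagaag
Siglece: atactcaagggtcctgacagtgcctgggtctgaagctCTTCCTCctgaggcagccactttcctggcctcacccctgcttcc
Axl: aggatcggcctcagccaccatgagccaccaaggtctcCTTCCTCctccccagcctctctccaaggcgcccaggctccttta

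Complement genes were mostly lower, with 5 of 7 called lower in LN and none higher (median -1.30). C1qb, a chain of the C1q molecule that macrophages make, read 264, 171, 309.9 and 371 in LN and 464, 654 and 1041 in spleen (-1.47 ± 0.19, adjusted p = 0.000805). C1qc was lower by a similar amount (-1.30 ± 0.16, adjusted p = 0.000738), as was Cfp, properdin, which stabilises the alternative pathway's convertase (-1.35 ± 0.16, adjusted p = 0.000596). C5ar1, the C5a receptor of neutrophils and macrophages, stood between 1.42 and 13.1 in LN and between 95.6 and 461 in spleen (-5.23 ± 0.76, adjusted p = 0.00271).

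B cell genes were lower in LN as a group. Of 22 pan B cell genes 19 were called lower and none higher (median -0.51). Ms4a1, which encodes CD20, read 5742, 5625, 6089.9 and 4234 in LN and 11067, 10012 and 10718 in spleen (1.95-fold lower, adjusted p = 0.00097). Spib and Blnk, a transcription factor and an adaptor of B cell receptor signalling, stood at -0.77 ± 0.08 (adjusted p = 0.000312) and -0.79 ± 0.08 (adjusted p = 0.000299). The 19 calls became 8 when both libraries of Wt mouse 1 or of Wt mouse 2 were left out. Marginal zone and B1 B cell genes were called lower in 12 of 15 cases and higher in none (median -1.17). Cr2, the complement receptor CD21 that marginal zone B cells carry at high level, read 3333, 3876, 3047 and 3849 in LN and 9145, 8561 and 10133 in spleen (-1.41 ± 0.11, adjusted p = 8.45e-05). S1pr3, a sphingosine-1-phosphate receptor that helps hold B cells in the marginal zone, read 79, 86.4, 159.9 and 159 in LN and 581, 525 and 907 in spleen (6.22-fold lower, adjusted p = 1.04e-05). Fcrl5, an Fc receptor-like protein of marginal zone and B1 cells (-2.17 ± 0.22, adjusted p = 0.000243), and Cd36, a lipid scavenger receptor also found on macrophages and platelets (-2.02 ± 0.21, adjusted p = 0.000257), were lower too. Cd1d1, which presents lipids, differed least of the defining markers (-0.38 ± 0.09, adjusted p = 0.018), and its call was lost without the LN of Wt mouse 2 or any 1 spleen (adjusted p between 0.0533 and 0.134).

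Immunoglobulin genes took between 0.666% and 0.878% of the signal in LN and between 1.90% and 2.49% in spleen. Ighm, the constant region of IgM, read 32224, 38646, 34483 and 35115 in LN and 143000.0, 108355 and 129722 in spleen (-1.85 ± 0.13, adjusted p = 4.45e-05). Igkc, the kappa light chain, read 22589, 26307, 31179 and 31009 in LN and 69156, 81719 and 91369 in spleen (3.02-fold lower, adjusted p = 4.45e-05). Ighd, the constant region of IgD on naive follicular B cells, read 10280.2, 11365, 10937 and 8446 in LN and 13850.2, 12534 and 9953 in spleen, overlapped and was not called (-0.19 ± 0.12, adjusted p = 0.337). In all, 4 of 12 constant regions were called, all lower in LN (7 with mouse as a fixed block). Of 170 variable segments 106 were called lower and none higher (median -1.72), with 55 of 88 heavy chain, 48 of 79 kappa and 3 of 3 lambda segments. Near-identical segments can share reads, so a single segment's value is uncertain.

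Plasma cell genes were lower in LN in 10 of 18 cases and higher in none (median -0.80). Jchain, which joins IgM and IgA into polymers, read 2972, 3699.8, 6602 and 4465 in LN and 11928, 10992 and 13506 in spleen (-1.60 ± 0.16, adjusted p = 0.000312). Mzb1, a chaperone of antibody assembly that marginal zone B cells also express, was lower (-1.32 ± 0.14, adjusted p = 0.000312), and Derl3, of the degradation machinery of the endoplasmic reticulum, was 2.29-fold lower (adjusted p = 0.00197). Xbp1, the transcription factor of secretory cells, was lower by less (-0.69 ± 0.13, adjusted p = 0.00626). Of 13 germinal centre genes 1 was called lower, a smaller share than the 10.1% of all genes, and none higher (median 0.33). It was Plxnb2, a semaphorin receptor (-0.91 ± 0.16, adjusted p = 0.00449), and its call was lost with tissue alone. Quantile normalisation gave 2 higher and 1 lower. Bcl6, the germinal centre master regulator, was 1582 ± 269 (SD, n = 4) in LN and 1598 ± 187 (SD, n = 3) in spleen (adjusted p = 0.866).

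**Figure D3:**
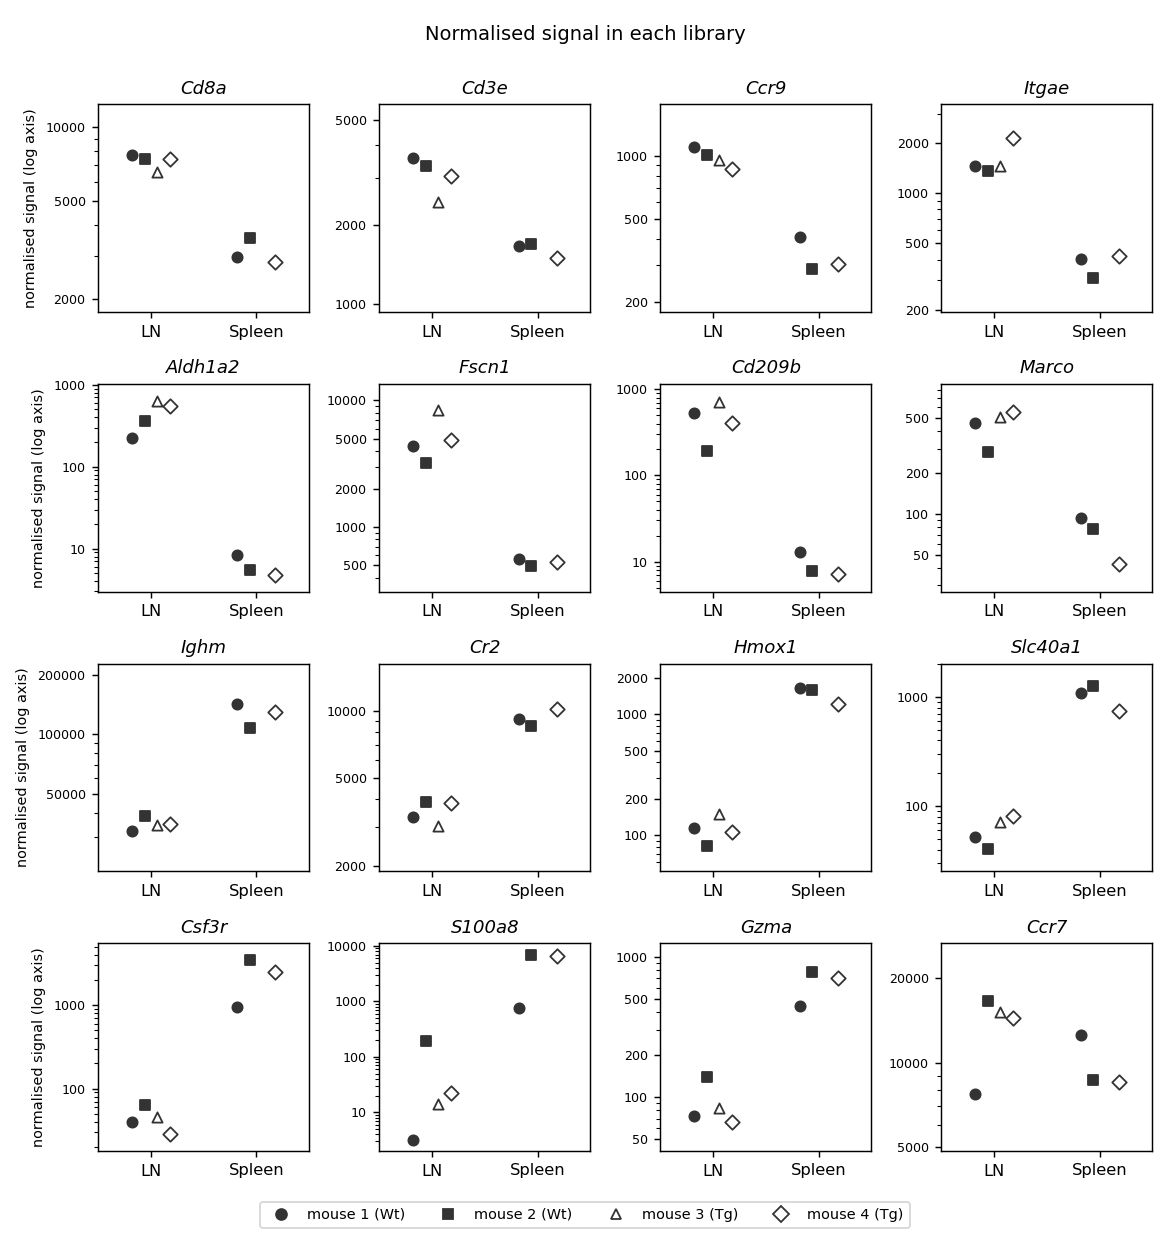
Normalised signal (log axis, its range set for each gene) in the 4 LN and 3 spleen libraries for 16 genes, with filled symbols for Wt, open symbols for Tg and a shape for each mouse. The tissues are apart for 15 genes and overlap for Ccr7, and the S100a8 values of LN Wt mouse 2 and spleen Wt mouse 1 stand away from their groups.

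Neutrophil genes had the lowest median of the lists, -5.51, with 16 of 22 called lower in LN and none higher. Csf3r, the receptor for the growth factor of neutrophils, read 40.3, 63.4, 45.3 and 28.7 in LN and 959, 3433 and 2509 in spleen (-5.51 ± 0.50, adjusted p = 0.00103). Il1b, the inflammatory cytokine that neutrophils and monocytes make, read 45.2, 61.3, 55.2 and 40.5 in LN and 728, 2672 and 2835 in spleen (-5.17 ± 0.51, adjusted p = 0.00152). Trem1, an activating receptor of both cells, was 30.4-fold lower in LN (adjusted p = 0.000826). Some neutrophil genes were uneven within a tissue. S100a8, which with S100a9 forms calprotectin of the neutrophil cytosol, read 3.23, 190.3, 14.2 and 21.9 in LN and 746, 6943 and 6692 in spleen. LN of Wt mouse 2 stood far above the other LN, and spleen of Wt mouse 1 far below the other spleens. The tissues did not overlap, yet in the fit without a mouse term neither S100a8 (adjusted p = 0.0745) nor its partner S100a9 (adjusted p = 0.0616) was called. With mouse as a fixed block all 22 genes of the list were called lower. Over the whole list the summed signal of the 4 LN was 266 to 377 in mice 1, 3 and 4 and 2394 in mouse 2, against 9089.6 to 64912.5 in the spleens. Genes of neutrophil precursors were among the 15 largest decreases. Elane, neutrophil elastase, read 0, 9.85, 1.42 and 0 in LN and 44.6, 369 and 459 in spleen (adjusted p = 0.00614; 0.0568 without the spleen of Tg mouse 4). Mpo, myeloperoxidase, read 3.23, 41.6, 5.66 and 0.844 in LN and 114, 871 and 1346 in spleen (adjusted p = 0.0415), a call lost without any 1 of 5 libraries (adjusted p between 0.0918 and 0.144); these were all except the spleen of Wt mouse 1 and the LN of Wt mouse 2. The 16 calls became 10 without the LN of Tg mouse 3 or the spleen of Wt mouse 2 and 7 without the spleen of Tg mouse 4. In Wt mice alone 2 were called (median -4.69), while without the LN of Wt mouse 2 all 22 were.

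Monocyte genes were lower in LN in 16 of 18 cases and higher in none (median -2.88). Fcgr4, an activating Fc receptor of non-classical monocytes and macrophages, read 1.61, 3.28, 7.08 and 17.7 in LN and 146, 218 and 894 in spleen (-5.92 ± 0.41, adjusted p = 4.58e-05). Cd14, the co-receptor for bacterial lipopolysaccharide, read 12.9, 6.56, 9.91 and 11 in LN and 177, 269 and 761 in spleen (-5.08 ± 0.41, adjusted p = 8.59e-05). In both genes the spleen of Tg mouse 4 was the highest library. F13a1, a clotting factor subunit of classical monocytes, read 27.4, 12, 7.08 and 8.44 in LN and 379, 555 and 401 in spleen (-4.96 ± 0.35, adjusted p = 4.97e-05), and Ace, the peptidase of non-classical monocytes, was 11.3-fold lower (adjusted p = 0.000108). Ly6c2, which classical monocytes share with memory T cells and plasma cells, overlapped between the tissues and was not called (-0.27 ± 0.14, adjusted p = 0.251). Acod1, the enzyme that makes itaconate in activated myeloid cells, was lower. It was listed at 0 in 2 LN libraries and at 2.19 and 0.844 in LN of mice 2 and 4, against 88.2, 306 and 454 in spleen (adjusted p = 0.00024). Hcar2, the niacin receptor (adjusted p = 0.000144), and Clec4e, the lectin Mincle (adjusted p = 0.000299), likewise stood at or under 5.66 in every LN library and at or above 85.4 in every spleen library.

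Of 19 platelet and megakaryocyte genes 9 were measured, with 8 called lower in LN and none higher (median -4.88). Genes near 0 in LN, such as Ppbp and Pf4 below, were listed only through another library, so their direction was partly set in advance. At a mean signal of at least 100, 4 genes were left and 3 were called lower. Ppbp and Pf4, the chemokines stored in platelet granules, were listed at 0 in all 4 LN libraries and read 86.3, 101 and 304 and 27.9, 44.8 and 110.2 in spleen, so no fold is given (adjusted p = 0.00016 for Ppbp, 0.00135 for Pf4). The Pf4 call was lost without the spleen of Tg mouse 4 (adjusted p = 0.0509), the library with the highest value of both. Vwf, von Willebrand factor of megakaryocytes and endothelium, read 9.68, 4.38, 9.91 and 9.28 in LN and 104, 131 and 211 in spleen (-4.10 ± 0.38, adjusted p = 0.000151). Itga2b, the integrin chain CD41 of megakaryocytes and early progenitors, read 71, 79.9, 87.7 and 101 in LN and 284, 304 and 571 in spleen (4.61-fold lower, adjusted p = 8.45e-05). Of 11 genes of eosinophils, basophils and mast cells 5 were measured. All 5 were called lower, 3 of them without the spleen of Tg mouse 4. At a mean signal of at least 100, 2 were left, both called lower. The limit set by the table's filter holds here too. Ccr3, the eotaxin receptor of eosinophils, read 6.45, 7.66, 5.66 and 8.44 in LN and 83.6, 91.2 and 65.5 in spleen (-3.30 ± 0.40, adjusted p = 0.000557). Mcpt8, a basophil protease, read 0, 2.19, 0 and 5.06 in LN and 51.1, 59.8 and 157 in spleen (adjusted p = 0.00197). Gata2, the transcription factor of progenitors, basophils and megakaryocytes, read 8.06, 6.56, 8.49 and 3.38 in LN and 234, 121 and 346 in spleen (-4.91 ± 0.47, adjusted p = 0.00017).

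**Figure D4:**
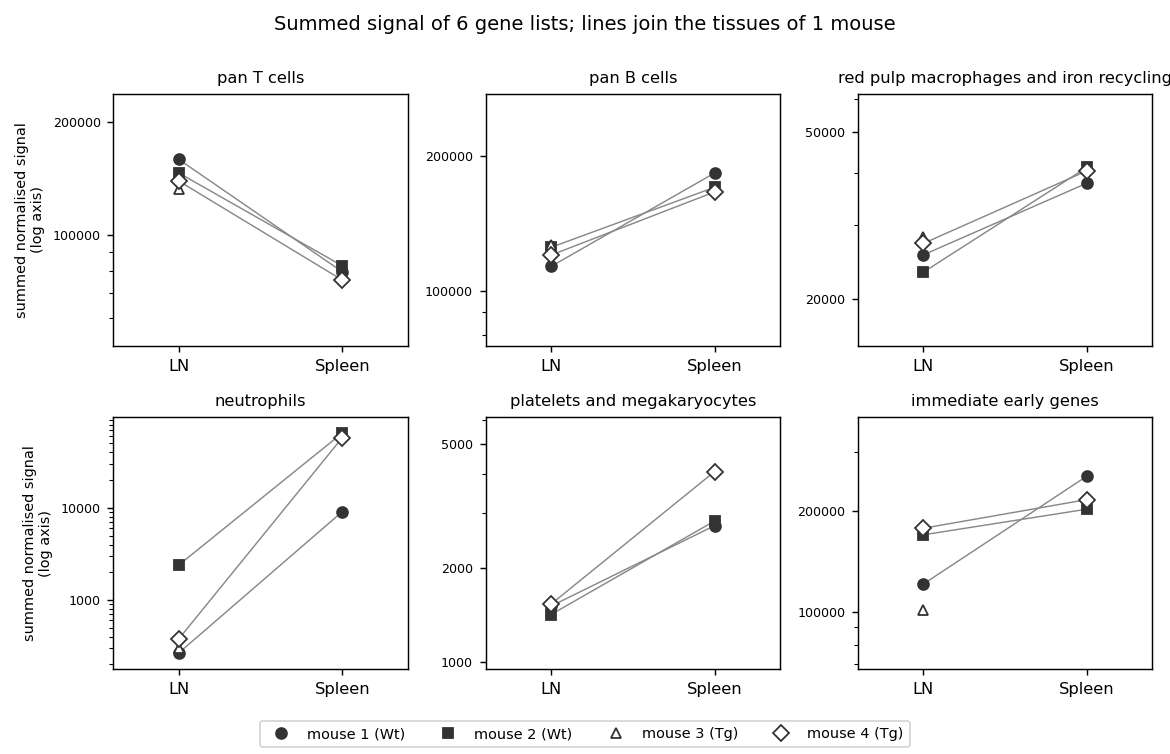
Summed normalised signal of 6 gene lists (log axis, its range set for each list) in LN and spleen, with a line joining the tissues of each of the 3 mice that gave both and a lone symbol for LN of Tg mouse 3. Every line falls for pan T cells and rises for the other 5 lists, and the neutrophil sum of LN Wt mouse 2, at 2394, lies above the other 3 LN.

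Erythroid genes were mostly level, with 4 of 32 called lower in LN and none higher, near the 10.1% of all genes called lower, at a median of -0.18. Hbb-bs, the adult beta globin, read 555, 617, 248 and 867 in LN and 379.7, 197 and 420.1 in spleen. The globin was no higher in spleen, and neither it (0.71 ± 0.52, adjusted p = 0.462) nor Alas2, the first enzyme of haem synthesis in red cell precursors (0.72 ± 0.73, adjusted p = 0.59), was called. The 4 called genes stood at much lower signals in LN. Car1 and Tal1 were near 0 there, so their direction was partly set in advance by the table's filter. Tal1 and Klf1 stayed below 109.3 in all 7 libraries, so they were listed only through a knock-in library. At a mean signal of at least 100, 16 genes of the list were left and 1 was called lower. Car1, the carbonic anhydrase of immature red cells, read 0, 4.38, 1.42 and 0 in LN and 106, 313 and 378 in spleen (adjusted p = 0.000376). Tal1, the transcription factor shared by erythroid cells, megakaryocytes and progenitors, read 0, 3.28, 0 and 2.53 in LN and 26, 70.0 and 98.2 in spleen (adjusted p = 0.00424). Klf1, the erythroid transcription factor, read 12.9, 10.9, 4.25 and 2.53 in LN and 25.1, 67.6 and 66.3 in spleen (-2.62 ± 0.63, adjusted p = 0.0203). The remaining gene was Ermap, an erythroid membrane protein (-1.91 ± 0.37, adjusted p = 0.00759). Without the spleen of Tg mouse 4 the calls of Tal1, Klf1 and Ermap were lost (adjusted p = 0.0738, 0.242 and 0.0539), that of Klf1 also without the spleen of Wt mouse 2 (0.094), and Car1 alone was left. With mouse as a fixed block 7 were called lower and 2 higher, and without the LN of Tg mouse 3 also 2 were higher.

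Windows of the promoters of Tal1, Klf1, Ermap and Hbb-bs are shown because these 3 called genes and the globin, which was not called, each hold a word of the erythroid factor GATA1, AGATAA or TGATAA on either strand, in the 250 bases before the start site. In RefSeq's promoters of build GRCm38.p6, 9.99% hold AGATAA, 7.94% hold TGATAA and 16.6% hold at least 1 of them. Of the list's 32 measured genes 21 matched an entry, with 25 promoters, of which 6 hold AGATAA and 7 hold TGATAA, most of them of genes that were not called. Car1 was among the genes with no entry, and with so many unmatched a comparison of the list's shares with the background is void. Capitals mark each match as read on the gene's strand (TTATCT and TTATCA are the reverse complements). As above, the letters do not show binding. The Tal1 window is chr4:115056184-115056263 (plus strand), the match starting 205 bases before the start site. The Klf1 window is chr8:84901865-84901944 (plus strand), the match starting 80 bases before the start site. The Ermap window is chr4:119190020-119190099 (minus strand), the match starting 67 bases before the start site. The Hbb-bs window is chr7:103828096-103828175 (minus strand), the match starting 210 bases before the start site.
Tal1: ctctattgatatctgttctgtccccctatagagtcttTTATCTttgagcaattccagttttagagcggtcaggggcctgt
Klf1: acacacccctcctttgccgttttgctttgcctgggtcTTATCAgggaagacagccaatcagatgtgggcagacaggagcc
Ermap: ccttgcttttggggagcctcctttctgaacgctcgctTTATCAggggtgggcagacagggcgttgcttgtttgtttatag
Hbb-bs: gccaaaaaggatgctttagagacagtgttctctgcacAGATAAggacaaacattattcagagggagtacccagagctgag

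Genes of natural killer (NK) cells and cytotoxic lymphocytes were lower in LN in 12 of 24 cases and higher in 2 (median -0.92). Ncr1, the NKp46 receptor that defines NK cells, read 30.6, 67.8, 62.3 and 73.4 in LN and 143, 186 and 165 in spleen (-1.60 ± 0.29, adjusted p = 0.00561). Gzma, a protease of cytotoxic granules, read 72.6, 139, 83.5 and 65.8 in LN and 445, 777 and 704 in spleen (7.03-fold lower, adjusted p = 0.000422). Klra4, a Ly49 receptor for MHC class I, was 5.92-fold lower (adjusted p = 0.000408). Ccl3 and Ccl4, chemokines that NK cells share with myeloid cells, stood at -3.08 ± 0.28 (adjusted p = 0.000151) and -2.70 ± 0.25 (adjusted p = 0.000151). The 2 higher members, Ctsw (1.33 ± 0.11, adjusted p = 8.69e-05) and Txk (0.63 ± 0.12, adjusted p = 0.00632), a cathepsin and a kinase, are expressed by T cells as well. Their share of the list was near the 5.66% of all genes called higher. The Txk call was lost when both libraries of Wt mouse 1 or of Wt mouse 2 were left out.

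Immediate early genes, which respond within minutes to stimulation or handling, were called lower in LN in 10 of 22 cases and higher in none (median -0.69). Ier3, a stress-induced survival gene, read 32.3, 19.7, 18.4 and 20.3 in LN and 282, 292 and 395 in spleen (13.8-fold lower, adjusted p = 4.97e-05). Zfp36, which destabilises cytokine mRNAs, read 10627, 7729, 5931 and 8907 in LN and 19271, 16499.5 and 17165 in spleen (-1.08 ± 0.17, adjusted p = 0.00299). Nr4a1, a nuclear receptor switched on by antigen, read 2833, 4802, 5481 and 4963 in LN and 16889, 11304 and 10924 in spleen (-1.57 ± 0.27, adjusted p = 0.00975; 0.0516 without the LN of Tg mouse 4). Fos read 6394, 7627, 2870.2 and 8607 in LN and 14175, 10963 and 15382 in spleen, apart but not called (-1.15 ± 0.42, adjusted p = 0.151), and Jun overlapped (-0.41 ± 0.37, adjusted p = 0.55). The count of 10 became 6 without the spleen of Wt mouse 1 and 4 without the spleen of Tg mouse 4. Neutrophil and monocyte genes were lower in the same libraries, and their part in these values was not tested. Proliferation genes were called lower in 2 of 30 cases, a smaller share than the 10.1% of all genes, and higher in none. They were Mki67 (-0.58 ± 0.15, adjusted p = 0.0297) and Tk1 (-0.58 ± 0.13, adjusted p = 0.0135). Both calls were lost without the spleen of Tg mouse 4 (adjusted p = 0.223 and 0.104) or of Wt mouse 2 (0.113 and 0.0695), and that of Mki67 also without any 1 of LN mice 1, 3 and 4 (between 0.0546 and 0.101). The count moved the other way without the spleen of Wt mouse 1, to 9 lower (median -0.51), and to 5 with mouse as a fixed block. Of 18 interferon response genes 1 was higher and 2 lower, near the shares of all genes (5.66% and 10.1%). Without the LN of Wt mouse 1 none was higher and 7 were lower (median -0.56), and without the spleen of Tg mouse 4 none was called in either direction. Ifit3 (-0.53 ± 0.56, adjusted p = 0.611) and Isg15 (-0.32 ± 0.34, adjusted p = 0.599) overlapped between the tissues.

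Few genes were there to check for tissue that is neither LN nor spleen. Of 10 adipocyte genes 2 were measured and both were called lower in LN, Pparg (-4.22 ± 0.45, adjusted p = 0.000303) and Lpl (-3.17 ± 0.45, adjusted p = 0.00145). Summed over the 2 genes, the signal lay between 7.66 and 11.3 in the LN libraries and between 121 and 182 in the spleen libraries. Both were thus listed only through a spleen or knock-in library, and their direction was partly set in advance. Neither reached a mean signal of at least 100. Pparg and Lpl are also expressed by macrophages, so they do not separate the cell types. Pecam1, expressed by endothelium and by leukocytes, read 3554, 3241, 3544 and 3214 in LN and 3791, 3374 and 3417 in spleen and was not called (-0.05 ± 0.09, adjusted p = 0.756).

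Bcl2 (ENSMUSG00000057329), the anti-apoptotic gene whose inserted copy defines the Tg line, was not called between the tissues. It read 2338, 2716, 2065 and 3171 in LN and 2611, 2427 and 2109 in spleen, with overlapping ranges (0.11 ± 0.15, adjusted p = 0.69). These reads were assigned to the mouse gene, and the sources used here do not say whether they include the transgene.

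Whether the tissue difference depended on genotype was asked with an interaction term over the same 7 libraries, with the single Tg spleen assumed to vary like the other groups. No gene of 10885 was called (0.00%) and 139 had an unadjusted p under 0.05 by limma, the smallest adjusted p being 0.9999. The 5 genes with the smallest p were 3 variable segments, Igkv5-43, Igkv1-88 and Ighv2-9, together with Prg2 and Slc40a1. In the segments the spleen of Tg mouse 4 stood alone: Igkv1-88 read 40.3, 43.8, 46.7 and 37.1 in LN and 169.9, 70.8 and 1571 in spleen. Prg2, the major basic protein of eosinophil granules, read 48.4, 33.9, 34 and 38.8 in LN and 221, 248 and 933 in spleen, again highest in that library. The iron exporter Slc40a1 went the other way, with a tissue difference of -4.65 in Wt and -3.27 in Tg and an interaction of 1.38 ± 0.34 (unadjusted p = 0.00291). With 1 Tg spleen, genotype and mouse 4 cannot be told apart in these values. The tissue difference itself called 1166 genes in the Wt mice alone and 414 in the Tg mice alone, the latter from 2 LN and 1 spleen.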

How the data were processed

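The authors' deposited table gives a normalised signal per gene and library. Per the submitters' processing notes, FastQC 0.11.5, STAR 2.5, featureCounts, Subread 1.4.6, DESeq2 1.26.0 and GRCm39 are listed without roles; the sources used here do not give the annotation or strand setting. That the signal is reads divided by 1 size factor was read from the values: each library had 1 step, and 100% of its values were multiples of it (tolerance 0.05 reads). Only the 4 LN columns held enough low values to pass a stricter check (100 needed), so no count test was run.

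From it, log2(signal + 1) was fitted with limma 3.58.1 (R 4.3.3; trend and robust moderation) over 7 libraries with tissue and genotype as terms and 4 residual degrees of freedom, with no further filter. A second fit added their interaction. Labels place both tissues of mice 1, 2 and 4 in the same animal; deviations from the Wt tissue mean correlated at 0.403 over genes. P-values cover the spread between these libraries. The fit was tested on simulated independent libraries without a mouse or genotype effect. That test does not cover the pairing of tissues within mice.

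Members, 29 gene lists and tests were chosen with earlier results of these data known. Genes were named as the 15 largest called increases and decreases without overlap, the first 3 measured of each list and up to 5 further called members by p (2 uncalled where none was called), Bcl2, and the 5 smallest interaction p. Alternatives were pseudocounts of 0.1 and 5, a mean signal of at least 100, other scalings, mouse as a block, tissue alone, 1 genotype alone, and omission of each library or mouse. Promoters came from RefSeq (GRCm38.p6).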

Additional observations from a re-analysis of the deposited data

Results flagged for a closer look

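The summed neutrophil signal of 1 library lay apart from its group. LN of Wt mouse 2 held 2393.57 over the 22 neutrophil genes, while the other 3 LN lay between 266 and 377. The gap to the nearest library was 0.948 of the group's whole range, above Dixon's 95% critical value for 4 samples. Summed signals of the lists were among 31 quantities examined this way, and chance flags about 1 in 20 groups.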

How the results depend on the processing

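Of 1717 calls, pseudocounts of 0.1 and 5 gave 1701 and 1719, a mean signal of at least 100 gave 1418, removal of immunoglobulin and haemoglobin genes 1615, the same total per library 1701, tissue alone 1728 and quantile normalisation 1875, of which 934 were higher in LN. Leaving out 1 library gave 890 to 2096 calls (259 to 890 higher, 631 to 1206 lower), and leaving out both libraries of a mouse 843 to 1182 (227 to 418 higher, 616 to 764 lower). Wt mice alone gave 1166, with 404 higher, and Tg mice alone 414, with 64 higher and 350 lower. With a replicate block, paired by mouse, 1889 genes were called as a random term (consensus correlation 0.129) and 2036 as a fixed term (811 higher, 1225 lower). Of 114 called genes named in the text, the random term lost none and the fixed term lost Axl and Siglec1; no other of these calls changed with the block, and none of the 114 changed sign under any alternative. Leaving out both libraries of a mouse lost 9, 10 and 16 of the 114 for mice 1, 2 and 4, among them Csf3r and Il1b without mouse 4 and Itgb7 without mouse 2. Wt mice alone lost 14 of the 114, and so did omission of the spleen of Tg mouse 4. Tg mice alone, with 1 spleen, lost more than any other alternative, among them Cd3e, Cd4, Ms4a1 and Spic. Median differences there were 0.85 for pan T cell, -0.43 for pan B cell and -0.51 for plasma cell genes. The interaction called no gene in any limma fit, with 61 to 822 genes at an unadjusted p under 0.05, and could not be fitted without the spleen of Tg mouse 4. Of 19 named genes that were not called 7 turned sign under some alternative. With a library or mouse left out Bcl2 ranged from -0.0091 to 0.23, Bcl6 from -0.16 to 0.10, Clec9a from -0.075 to 0.46, Flt3 from -0.32 to 0.13, Ifit3 from -1.10 to 0.080 and Siglech from -0.22 to 0.53. In Tg alone Alas2 was -0.50, Bcl6 0.13 and Flt3 0.42, and Flt3 was 0.059 after quantile normalisation and 0.035 with tissue alone. In Wt alone Clec9a was -0.075 and Siglech -0.22. The causes were not tested. The planned count tests were not run. Genes with few reads in LN have fitted differences that depend on the pseudocount.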

Other observations

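The families below were picked after their values had been seen, so their counts describe the data and support nothing further. Receptors with paired inhibitory and activating forms were lower in LN nearly throughout: 6 of 7 measured CD300 receptors and 6 of 6 paired and leukocyte immunoglobulin-like receptors. Cd300a, an inhibitory receptor of myeloid cells, read 90.3, 63.4, 62.3 and 66.7 in LN and 508, 572 and 422 in spleen (-2.77 ± 0.17, adjusted p = 3.59e-05), and Pirb, which binds MHC class I, read 421, 375, 451 and 398 and 1124, 1471 and 1386 (-1.70 ± 0.12, adjusted p = 4.58e-05). Interferon-induced transmembrane genes were lower in 4 of 5 cases. Ifitm3, which blocks the entry of enveloped viruses, read 87.1, 61.3, 92 and 49 in LN and 474, 823 and 844 in spleen (9.85-fold lower, adjusted p = 0.000162). C-type lectins named Clec were lower in 8 of 12 cases, Toll-like receptors in 6 of 9 with Tlr12 higher, and killer lectin-like receptors in 9 of 12.

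Higher in LN were 4 of 5 apolipoprotein L genes and, among single genes, Art2b, an ectoenzyme of T cells (1.63 ± 0.09, adjusted p = 2.77e-05), St8sia1, a ganglioside sialyltransferase (1.28 ± 0.09, adjusted p = 4.97e-05), and Igfbp4, a growth factor binding protein (1.76 ± 0.19, adjusted p = 0.000557). Lower were Fn1, fibronectin, which read 91.9, 56.9, 77.8 and 70.9 in LN and 1193, 1627 and 1329 in spleen (-4.21 ± 0.19, adjusted p = 1.04e-05), and Lrp1, a scavenger receptor of macrophages (11-fold lower, adjusted p = 3.88e-05). Cd44, the hyaluronan receptor that rises on memory cells, read 884, 1126, 1107 and 1063 in LN and 2225, 2282 and 2246 in spleen (-1.12 ± 0.10, adjusted p = 0.000126). Among housekeeping families, 4 of 79 cytosolic ribosomal protein genes were higher, near the 5.66% of all genes, and none lower. Their median was 0.18, against a median absolute difference of 0.16 over all genes, and 20 had an unadjusted p under 0.05 by limma. Over all genes 3024 of 10885 did. Medians were nearer 0 in 15 mitochondrially encoded genes (0.028, 3 at an unadjusted p under 0.05) and 46 NDUF subunits of complex I (0.033, 2 at an unadjusted p under 0.05). None of either family was called by limma.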
